A study of Gallus gallus with 24 samples.

Results

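The 54 genes described here encode chromatin-modifying enzymes and remodellers. They are the genes whose symbol starts with KDM, KMT, HDAC, SETD, CHD or KAT followed by a digit, or with SMARC or DNMT, and that reached 1 FPKM (read pairs normalized for gene length and library size) in at least 4 of 24 libraries. Of 20780 genes with values, 57 carried such a symbol and 54 of these passed the level rule, as did 10944 genes of the whole table. Only 12264 of the 20780 genes carried any symbol, so relatives listed without one are not covered. RNA was sequenced from the soleus (SOL), in the lower leg, and the pectoralis major (PEM), in the breast, of chickens of the Guangyuan Grey breed. The birds were hens fed high-fat feed for 60 days (LHFD), the same kind of feed for 15 days (SHFD) or control feed (CONT). All entered at 150 days of age and were killed at 210 days of age after 12 h without feed, 9 birds were chosen per diet, and every combination of muscle and diet has 4 libraries, 6 groups in all. The study's design text describes SOL as a mixture of oxidative and glycolytic fibres and PEM as mainly fast glycolytic, and says that both muscles were sampled in the same birds, without tying a library to a bird.

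Chromatin enzymes act on the histones around which DNA is wound, or on DNA itself. Methyltransferases and acetyltransferases add marks to histone tails, demethylases and deacetylases take them off, remodellers of the SWI/SNF (BAF), ISWI and CHD families use ATP to move or evict nucleosomes, and DNA methyltransferases methylate cytosine. In vertebrate skeletal muscle, class IIa deacetylases are known to bind MEF2 factors and hold back genes of slow and oxidative fibres, and BAF complexes are recruited by MYOD to open myogenic genes. The questions the design poses are how these genes differ between the muscles and whether either high-fat diet moved them.

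The labelled muscles were checked against their fibre genes. The 11 slow-fibre genes summed to between 11286 and 40559 FPKM in SOL libraries and between 30.2 and 224.5 FPKM in PEM libraries, where up to 3 of them were listed at 0. The 9 fast-fibre genes summed to between 5946 and 37122 FPKM in SOL and between 45254 and 60906 FPKM in PEM. They did not all differ alike: in the test described below 5 were lower in SOL and 4 higher. MYH1E had a median of 262 FPKM in SOL and 11288 FPKM in PEM, and MYH1C 2436 and 522 FPKM. The values of a library summed to between 474667 and 525731 FPKM, and their depth in reads is unknown. The 13 mitochondrially encoded genes took 20.6% to 27.0% of that sum in SOL and 10.4% to 17.3% in PEM. No 2 libraries were copies of each other, the highest correlation being 0.984. One library, CONT_PEM 2, stood apart: its mean correlation with its own group was 0.943, and its 11 macrophage genes summed to 676 FPKM, the highest of the 24 libraries. SHFD SOL was uneven in make-up. Its lowest fast-fibre sum was 5946 FPKM, against 19544 in CONT SOL and 22312 in LHFD SOL. It also held the highest slow-fibre sum, 40559 FPKM. The sum of its 8 smooth muscle and pericyte genes reached 1026 FPKM, against at most 256 in CONT SOL and 236 in LHFD SOL. That sum does not describe the list as a whole. The mean log2(FPKM + 1) of the 8 genes was 3.55 to 3.63 in SHFD SOL. It was 3.38 to 3.58 in CONT SOL and 3.42 to 3.65 in LHFD SOL. The part of the uneven fibre sums in the SHFD SOL contrasts was not tested.

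The members were expressed at ordinary levels for this tissue. Their mean over all libraries had a median of 6.63 FPKM, against 6.01 FPKM over all genes tested. SETD7, which methylates lysine 4 of histone H3 (H3K4) and several other proteins, was the highest at 101.7 FPKM. The acetyltransferase KAT2B followed at 60.1 FPKM, and then the BAF ATPase SMARCA2 at 34.9 FPKM and the actin histidine methyltransferase SETD3 at 30.3 FPKM. At the other end, KDM4C reached 1 FPKM in 7 libraries with a mean of 0.929 FPKM, and SMARCAD1 did so in 23 libraries with a mean of 1.36 FPKM. The 3 genes left out by the level rule were DNMT3B, which never passed 0.0220 FPKM, SETD4, which never passed 0.626 FPKM, and HDAC10, which reached 1.07 FPKM in 1 library. DNMT3A and DNMT1 were therefore the only genes with a DNMT symbol that passed the level rule.

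Between the muscles, averaged over the 3 diets, 17 members were higher in SOL and 16 were lower, 61.1% of the 54. Over all genes tested the called share was 69.6%, with 40.9% higher and 28.7% lower, so the members were called no more often than the rest of the transcriptome. A gene is called here at an adjusted p under 0.05 in limma, fitted on log2(FPKM + 1) of all 24 libraries, and fold changes are on that scale, which understates changes of genes with low values. The median absolute log2 fold change was 0.28 for the members and 0.39 for all genes tested. The median signed value was -0.02 for the members and 0.10 for all genes. Other scalings moved the median of all genes to -0.04 (quantile normalization) and 0.18 (equal sums of nuclear-encoded genes), and the split of 17 higher to 16 lower moved with them, to 14 and 25 and to 24 and 13. Within single diets the counts were 14 higher and 10 lower under CONT, where 50.7% of all genes were called and 30.7% were higher. They were 9 and 15 under SHFD, where 51.6% of all genes were called, 26.5% higher and 25.1% lower, and 13 and 8 under LHFD, where 43.8% were called, 28.9% higher and 14.9% lower. Without LHFD_SOL 4 the 8 lower under LHFD became 4, and without LHFD_SOL 2 or LHFD_PEM 3 they became 5. After quantile normalization the counts were 11 and 16 under CONT, 10 and 18 under SHFD and 8 and 15 under LHFD, and with equal nuclear-encoded sums 19 and 6, 10 and 14, and 15 and 5. Over all genes they were 2508 and 3130, 2503 and 3166, and 2208 and 2739 after quantile normalization. With equal nuclear-encoded sums they were 4104 and 1600, 3225 and 2380, and 3770 and 1270. In bulk muscle, fewer cells of a type and less RNA per cell cannot be told apart, and the muscles also differed in other cell types: the 10 endothelial genes summed to between 130.7 and 187.1 FPKM in SOL and between 44.7 and 91.2 FPKM in PEM, and the 9 adipocyte genes to between 153.6 and 400.8 FPKM in SOL and between 27.9 and 101.4 FPKM in PEM. Their part in the differences that follow was not tested.

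**Figure D1:**
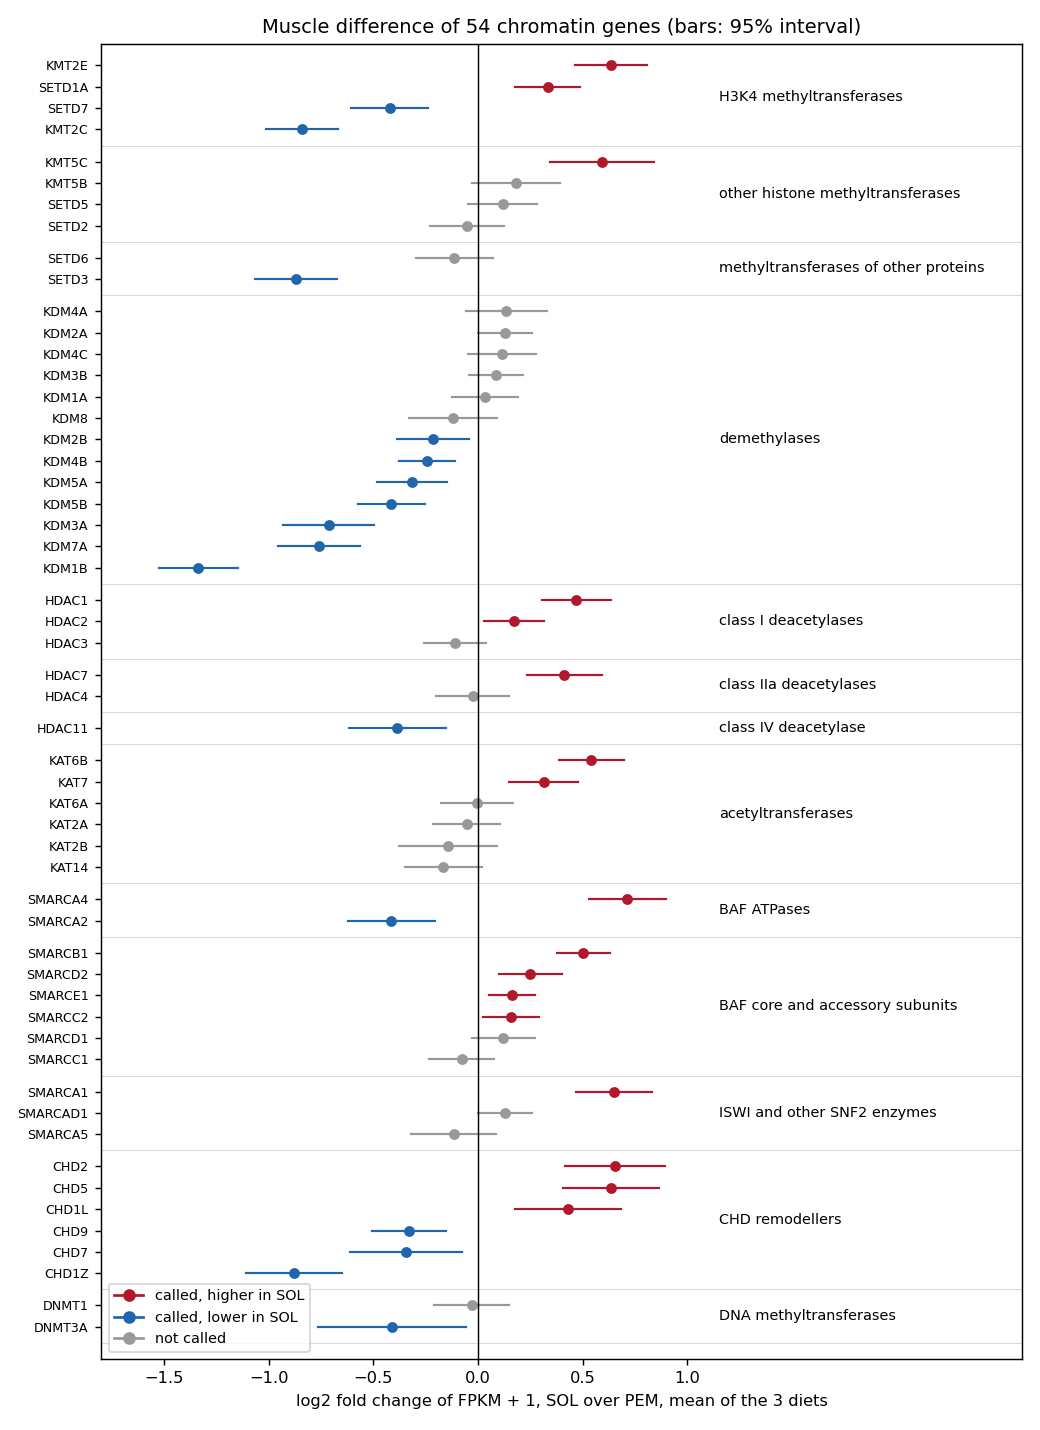
Each point is the log2 fold change of FPKM + 1 of 1 gene, SOL over PEM, as the mean of the 3 diets, with its 95% interval from limma; genes are grouped by role and ordered by size within a role. The 17 points called higher reach 0.71 (SMARCA4), the 16 called lower reach -1.34 (KDM1B), and every called demethylase lies left of 0.

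Only 4 of the 54 members separated the 12 SOL libraries from the 12 PEM libraries without overlap, against 17.6% of all genes tested. SMARCA4 was the only one higher in SOL, and KDM1B, KMT2C and SETD3 were lower. A further criterion, a call in the same direction in each of the 3 diets, was met by 11 members (32.9% of all genes, 20.3% higher and 12.6% lower): HDAC1, KMT2E, SETD1A, SMARCA1, SMARCA4 and SMARCB1 were higher in SOL, and KDM1B, KDM3A, KDM7A, KMT2C and SETD3 were lower. Another 20 members were called in no single diet, among them KAT2A, KAT2B, KDM1A, SETD2, HDAC3 and HDAC4. The share of all genes called in no single diet is not given here, so nothing about the members is read from that count.

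Methylated H3K4 marks active promoters and enhancers. Of the 4 members grouped with its methyltransferases, KMT2E among them by family, 2 were higher and 2 lower in SOL. Over all genes tested 40.9% were higher and 28.7% lower. KMT2C, the catalytic subunit of an enhancer-bound complex, had 7.16, 8.53 and 10.6 FPKM as the lowest, median and highest of the SOL libraries, against 10.9, 17.7 and 21.2 FPKM in PEM. Its highest SOL library thus lay under its lowest PEM library, and the log2 fold change was -0.84 ± 0.08 (SE; limma adjusted p = 9.41e-09). KMT2E, a relative known mainly as a reader of methylated H3K4, went the other way, with 9.75, 12.5 and 20.8 FPKM in SOL against 5.99, 7.91 and 10.7 FPKM in PEM. The ranges overlapped slightly, and its log2 fold change was 0.64 ± 0.08 (limma adjusted p = 6.09e-07). SETD7 was lower in SOL at 67.5, 89.0 and 105 FPKM against 91.1, 117 and 149 FPKM in PEM, with a log2 fold change of -0.42 ± 0.09 (limma adjusted p = 0.000229). SETD1A, of a promoter-bound complex, was higher by 0.33 ± 0.07 (limma adjusted p = 0.000431), but the call was lost after quantile normalization, and the table's own annotation describes this row as SETD1B, so its identity is uncertain.

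The remaining methyltransferases hold marks of gene bodies and of silenced chromatin. KMT5C, which methylates lysine 20 of histone H4, was higher in SOL at 1.81, 3.09 and 6.15 FPKM against 1.21, 1.79 and 2.51 FPKM in PEM (log2 fold change 0.59 ± 0.12, limma adjusted p = 0.000145). Its paralog KMT5B had a log2 fold change of 0.18 ± 0.10 and was not called, nor were SETD5 and SETD2, the enzyme that trimethylates lysine 36 of histone H3. SETD2 had a log2 fold change of -0.05 with a 95% interval from -0.23 to 0.13, so a difference of the size seen for KMT2C lay outside it. KMT5B and SETD5 were called higher with equal nuclear-encoded sums, and KMT5B also without CONT_PEM 2. Within single diets KMT5B was called higher in SOL under CONT alone, and KMT5C under CONT and SHFD but not under LHFD.

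SETD3 and SETD6 methylate proteins other than histones. SETD3, known in mammals to methylate a histidine of actin, had 14.1, 20.4 and 28.8 FPKM in SOL against 30.6, 37.1 and 53.2 FPKM in PEM. All 12 SOL libraries were below all 12 PEM libraries, with a log2 fold change of -0.87 ± 0.09 (limma adjusted p = 4.13e-08). The gene of its substrate, skeletal actin ACTA1, had a median of 24466 FPKM in SOL and 22770 FPKM in PEM, with overlapping ranges and a log2 fold change of 0.20 ± 0.09 (limma adjusted p = 0.0463). All 3 skeletal muscle marker genes, ACTA1 among them, were called higher in the main fit, but only 2 after quantile normalization or without CONT_PEM 2. SETD6 was not called over the 3 diets, at a log2 fold change of -0.11 ± 0.09. Within single diets SETD6 was called lower in SOL under CONT alone.

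Demethylases were the largest role with 13 members, and 7 of them were lower in SOL and 0 higher, where 28.7% of all genes tested were lower and 40.9% higher. The other 6, KDM1A, KDM2A, KDM3B, KDM4A, KDM4C and KDM8, were not called. KDM1B, a flavin-dependent demethylase of H3K4, showed the greatest difference of all members, with 0.652, 1.33 and 1.79 FPKM in SOL against 3.01, 4.34 and 7.05 FPKM in PEM. No SOL library came near the lowest PEM library, and the log2 fold change was -1.34 ± 0.09 (limma adjusted p = 3.03e-11). Its relative KDM1A (LSD1) had 3.81, 4.80 and 6.11 FPKM in SOL and 3.63, 4.38 and 6.03 FPKM in PEM, and its log2 fold change of 0.03 had a 95% interval from -0.12 to 0.19. KDM7A, which acts on lysines 9 and 27 of histone H3, had 6.46, 10.9999 and 17.3 FPKM in SOL against 13.8, 17.8 and 25.0 FPKM in PEM (log2 fold change -0.76 ± 0.09, limma adjusted p = 3.46e-07). KDM3A, a demethylase of lysine 9 of histone H3 that is known to respond to hypoxia, had 5.25, 7.60 and 9.44 FPKM in SOL against 9.44, 11.7 and 25.7 FPKM in PEM, so that the ranges met at their ends (log2 fold change -0.71 ± 0.10, limma adjusted p = 3.04e-06). The H3K4 demethylases KDM5B (-0.42) and KDM5A (-0.32), together with KDM4B (-0.24) and KDM2B (-0.22), completed the lower group. The count of 7 became 8 after quantile normalization, with 0 higher, and 6 with equal nuclear-encoded sums, where KDM2A, KDM3B and KDM4A were called higher.

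Of the 6 acetyltransferases 2 were higher in SOL and 0 lower, where 40.9% of all genes tested were higher and 28.7% lower. KAT6B (MORF), which acetylates histone H3, was higher in SOL at 3.01, 4.34 and 4.83 FPKM against 1.25, 2.702 and 3.0996 FPKM in PEM, with a log2 fold change of 0.54 ± 0.08 (limma adjusted p = 1.62e-06). KAT7 (HBO1) was higher by 0.31 ± 0.08 (limma adjusted p = 0.00131). Within single diets KAT6B and KAT7 were called under CONT and LHFD, and neither was called under SHFD. KAT6A, the paralog of KAT6B, had a log2 fold change of -0.00 with a 95% interval from -0.18 to 0.17. KAT2A, KAT2B and KAT14, which belong to the SAGA and ATAC coactivator complexes, were not called either, at log2 fold changes of -0.05, -0.14 and -0.17, but all 3 were called lower after quantile normalization.

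Of the class I deacetylases, which work in the NuRD, SIN3, CoREST and NCoR corepressor complexes, HDAC1 was higher in SOL at 3.87, 4.54 and 5.97 FPKM against 2.02, 3.09 and 4.94 FPKM in PEM (log2 fold change 0.47 ± 0.08, limma adjusted p = 2.04e-05). HDAC2 was more abundant than HDAC1 in both muscles and differed less, with a log2 fold change of 0.17 ± 0.07 (limma adjusted p = 0.0319), a call that was lost on leaving out any 1 of 11 libraries. HDAC3 was not called, at -0.11 ± 0.07. The MEF2-binding class IIa enzymes split: HDAC7 was higher in SOL at 6.28, 8.99 and 10.9 FPKM against 5.14, 6.16 and 9.99 FPKM in PEM (log2 fold change 0.41 ± 0.09, limma adjusted p = 0.000246), whereas HDAC4 had a log2 fold change of -0.03 with a 95% interval from -0.20 to 0.15. HDAC3 and HDAC4 were called lower after quantile normalization. HDAC11, the class IV enzyme, was lower in SOL by a log2 fold change of -0.39 ± 0.11 (limma adjusted p = 0.00405). No gene with values carried the symbol HDAC5 or HDAC9, so HDAC7 and HDAC4 stand alone for class IIa here.

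The BAF ATPases, of which a complex holds one or the other, differed in opposite directions. SMARCA4 (BRG1) had 13.6, 15.8 and 19.8 FPKM in SOL against 6.14, 9.64 and 12.8 FPKM in PEM. The groups did not overlap, and the log2 fold change was 0.71 ± 0.09 (limma adjusted p = 3.61e-07). By diet, the SOL means of SMARCA4 were 17.5 FPKM under CONT, 16.1 FPKM under SHFD and 15.6 FPKM under LHFD, and the PEM means were 8.61, 9.23 and 11.3 FPKM in the same order. SMARCA2 (BRM) had 19.5, 30.5 and 38.9 FPKM in SOL against 30.1, 37.8 and 53.8 FPKM in PEM, with a log2 fold change of -0.41 ± 0.10 (limma adjusted p = 0.000993). Within single diets SMARCA2 was called under SHFD alone, at -0.75 ± 0.17 (limma adjusted p = 0.00124), with -0.24 under CONT and -0.25 under LHFD; whether these differ was tested as the difference of the diet effects between muscles, where it was not called.

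Of the 6 other BAF subunits, 4 were higher in SOL and 0 lower, where 40.9% of all genes tested were higher and 28.7% lower. SMARCB1, a core subunit of the complex, had 8.21, 10.7 and 12.7 FPKM in SOL against 6.10, 7.19 and 8.88 FPKM in PEM, and its log2 fold change was 0.50 ± 0.06 (limma adjusted p = 2.33e-07). The 3 further calls were smaller: SMARCD2 at 0.25, SMARCE1 at 0.16 and SMARCC2 at 0.16. Within single diets SMARCD2 was called under SHFD and LHFD but not under CONT, SMARCE1 under LHFD alone and SMARCC2 under CONT alone. The higher SMARCD2 value in SOL is thus not shown for the control diet, and SMARCD2 fell in PEM under both high-fat diets, as given below. SMARCC1 and SMARCD1 were not called. Under quantile normalization the count was 3 and with equal nuclear-encoded sums it was 5, with 0 lower in both.

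Among the ISWI enzymes, which space nucleosomes, SMARCA1 (SNF2L) was higher in SOL at 5.68, 8.77 and 10.7 FPKM against 4.002, 5.17 and 6.61 FPKM in PEM (log2 fold change 0.65 ± 0.09, limma adjusted p = 1.12e-06). SMARCA5 (SNF2H) was not called, at -0.12 ± 0.10. Neither was SMARCAD1, an SNF2 enzyme outside the ISWI family that was grouped with them, at 0.13 ± 0.06. Both were called lower after quantile normalization, but SMARCAD1 was called higher with equal nuclear-encoded sums and without CONT_PEM 2. Of the 6 CHD remodellers 3 were higher and 3 lower, where 40.9% of all genes tested were higher and 28.7% lower. The CHD split was 2 and 3 after quantile normalization and 3 and 2 with equal nuclear-encoded sums. CHD2 had 8.65, 10.3 and 15.6 FPKM in SOL against 3.36, 6.31 and 11.04 FPKM in PEM (log2 fold change 0.65 ± 0.11, limma adjusted p = 3.04e-05). CHD5, a subunit of NuRD-type complexes, was higher by 0.64 ± 0.11 (limma adjusted p = 2.69e-05), and CHD1L, which is activated by poly(ADP-ribose), by 0.43 ± 0.12 (limma adjusted p = 0.00363). CHD1Z, the copy of CHD1 on the Z chromosome of birds, was lower in SOL at 1.83, 3.01 and 4.62 FPKM against 2.68, 6.52 and 10.3 FPKM in PEM, with a log2 fold change of -0.88 ± 0.11 (limma adjusted p = 3.55e-07). Birds also carry a near-identical copy on the W chromosome, so reads of both copies could have been counted together in these hens. CHD9 (-0.33) and CHD7 (-0.35) were the other members lower in SOL. Within single diets CHD1Z was called lower under SHFD (-1.23) and LHFD (-0.95) but not under CONT, and CHD9 likewise. CHD7 was called lower under CONT and SHFD. Of those higher, CHD2 was called under SHFD and LHFD but not CONT, CHD5 under CONT and LHFD, and CHD1L under CONT alone.

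The de novo DNA methyltransferase DNMT3A was lower in SOL by a log2 fold change of -0.41 ± 0.17 (limma adjusted p = 0.0375), with 14.9, 21.5 and 40.6 FPKM in SOL against 6.51, 38.1 and 51.4 FPKM in PEM. That call was lost on leaving out any 1 of 12 libraries, CONT_PEM 2 among them, and with equal nuclear-encoded sums. Within single diets DNMT3A was called under SHFD alone, at -0.97 ± 0.30 (limma adjusted p = 0.0095). Under CONT neither of the 2 DNA methyltransferases was called, and the median of their log2 fold changes was 0.18. The lower DNMT3A value over the 3 diets is thus not shown for the control diet. The maintenance enzyme DNMT1 had 3.07, 3.99 and 6.05 FPKM in SOL and 3.17, 4.19 and 6.24 FPKM in PEM, a log2 fold change of -0.03 with a 95% interval from -0.21 to 0.15, and was called lower after quantile normalization.

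**Figure D2:**
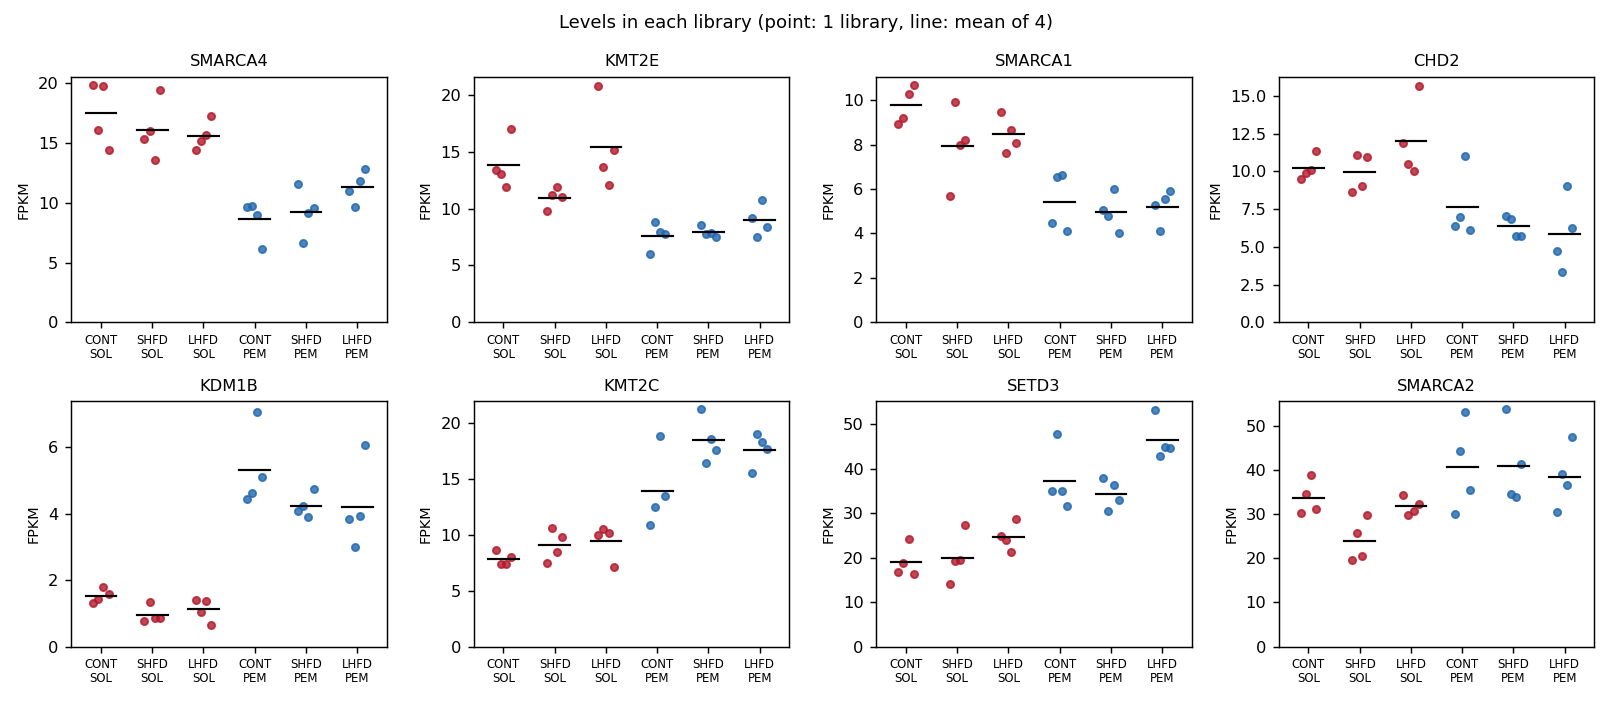
Each point is the FPKM of 1 library and each line the mean of the 4 libraries of a group, SOL in red and PEM in blue, for 8 members. All 8 were called between the muscles over the 3 diets, but they are not the 8 with the largest differences. In SMARCA4, KDM1B, KMT2C and SETD3 no SOL point reaches the level of a PEM point or the reverse, and in SMARCA2 the groups overlap, with SOL from 19.5 to 38.9 FPKM and PEM from 30.1 to 53.8 FPKM.

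The ratio of 2 related genes was also compared within each library, which removes any factor common to a library. For 14 pairs the log2 ratio of FPKM + 0.1 was tested between muscles with an exact permutation test over 343000 arrangements of the muscle labels within diets, two-sided and adjusted over the 14 pairs; 10 pairs passed, 5 with a higher and 5 with a lower ratio in SOL. The share of other gene pairs that would pass is not given here, and 69.6% of single genes tested were called between the muscles. The count of 10 is therefore not read as particular to related chromatin genes. A ratio shows unequal change and does not say which gene changed. The pairs were chosen with results of these data known, and the ratios are built from the values given above, so they describe the same differences on a scale free of library scaling and are not independent evidence.

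KDM1B over KDM1A gave the greatest contrast. KDM1B made up 12.2%, 21.4% and 27.1% of the summed FPKM of the pair as the lowest, median and highest share in SOL libraries, against 43.1%, 49.2% and 60.3% in PEM libraries. The mean log2 ratio was -1.94 ± 0.39 in SOL and -0.03 ± 0.29 in PEM (SD, n = 12 each), a difference of -1.91 (exact permutation p = 5.83e-06, the smallest these arrangements can give, adjusted p = 4.08e-05). SMARCA2 made up 56.0%, 65.7% and 70.4% of the sum of the BAF ATPases in SOL, against 73.5%, 80.7% and 85.6% in PEM. In neither pair did the muscles overlap. The log2 ratio of SMARCA2 over SMARCA4 was lower in SOL by -1.19 (exact permutation adjusted p = 4.08e-05), while the sum of the ATPases had a median of 47.6 FPKM in SOL and 48.6 FPKM in PEM. Unlike the ratio, that sum depends on the library scaling. The median log2 fold change of the 2 ATPases was 0.15 in the main fit, 0.13 after quantile normalization and 0.25 with equal nuclear-encoded sums.

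In the other called pairs the muscles overlapped. KDM3B made up a median of 44.5% of its pair with KDM3A in SOL and 32.4% in PEM, a log2 difference of 0.87. SMARCA1 made up a median of 68.2% of the ISWI pair in SOL and 52.8% in PEM, a log2 difference of 0.88, and KAT6B 34.3% of its pair with KAT6A in SOL and 23.0% in PEM, a log2 difference of 0.71. HDAC7 over HDAC4 differed by 0.50 and SMARCC2 over SMARCC1 by 0.26. The ratio was lower in SOL for HDAC2 over HDAC1 (-0.40), KDM2B over KDM2A (-0.39) and KDM4B over KDM4A (-0.45). The exact permutation adjusted p of these 8 pairs ran from 5.44e-05 to 0.0195. SMARCD2 over SMARCD1, KAT2B over KAT2A, KDM5B over KDM5A and DNMT3A over DNMT1 were not called.

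**Figure D3:**
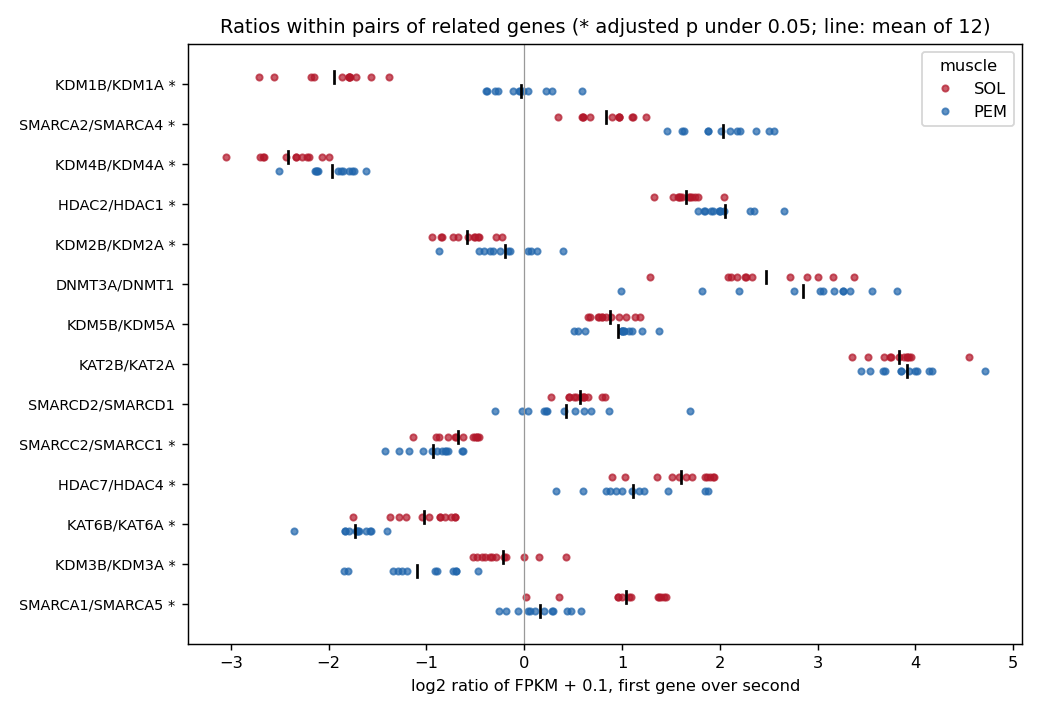
Each point is the log2 ratio of FPKM + 0.1 of 2 related genes in 1 library, SOL above PEM within each pair, and each line the mean of 12 libraries; an asterisk marks the 10 pairs with an adjusted p under 0.05. The muscles do not overlap in KDM1B/KDM1A and SMARCA2/SMARCA4, where SOL has the lower ratio.

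Genes outside the 54 that work with these enzymes were counted from lists, which were also chosen with earlier results of these data known. Their counts in the main fit stand against 40.9% higher and 28.7% lower over all genes tested. Those under other scalings stand against the all-gene counts given above for each scaling. Nothing particular to a list is read from any of these counts. Polycomb genes gave 12 higher and 3 lower of 26 tested in SOL over the 3 diets, led by EZH1 (0.57), the methyltransferase of lysine 27 of histone H3 found in non-dividing cells, and PCGF5 (-0.72), but quantile normalization turned the split to 6 and 7. Further acetyltransferases and partners gave 7 higher and 15 lower of 35, with CREBBP at -0.70 and NCOA1 at -0.65 and a median of -0.12, against 0.10 for all genes tested; the split was 3 and 22 after quantile normalization and 11 and 11 with equal nuclear-encoded sums. Of 7 further demethylation genes, 5 were lower and 1 higher, with the JmjC-domain genes JMJD4 (-0.998) and JMJD6 (-0.71) and the DNA glycosylase TDG (-0.62) leading. The 25 further BAF, ISWI and INO80 subunits gave 3 higher and 7 lower, with BRD7 (-0.82) and DPF3 (-0.77), both subunits of BAF-type complexes, among those lower, but equal nuclear-encoded sums turned the split to 10 and 5. Sirtuins and HDAC corepressor partners gave 7 higher and 5 lower of 25, which became 5 and 11 after quantile normalization. Further histone methyltransferases and partners gave 8 and 7 of 20, which became 8 and 10. The MEF2 and myogenic partners of class IIa deacetylases gave 13 higher and 5 lower of 20, their median being 0.40, and 12 and 6 or 13 and 4 under the other scalings. The kinase genes CAMK2A (3.44) and CAMK2B (1.10), whose products phosphorylate class IIa deacetylases, and the 14-3-3 gene YWHAQ (1.31) were first among them.

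The long high-fat diet was the one diet contrast with several called members. In PEM, LHFD against CONT, 4 members rose and 3 fell, 13.0% of the 54, where 6.94% of all genes tested were called, 2.05% up and 4.90% down. DNMT3A, CHD1Z, CHD9 and KMT5B rose, and SMARCD2, SETD6 and KDM3A fell. The split depended on the scaling: after quantile normalization 7 rose, with SMARCA4, KMT2C and KDM7A added, and 1 fell, SETD6 and KDM3A being lost. In the main fit another 10 members had an unadjusted p under 0.05 in limma without passing, 17 in all. The share of all genes under that unadjusted threshold is not given here. No excess among the members is therefore read from this count or from the unadjusted counts below. SHFD against CONT in PEM gave 1 call, SMARCD2, where 1.07% of all genes were called, 0.530% lower, and 12 members had an unadjusted p under 0.05. The LHFD count was 4 without CONT_PEM 1 or LHFD_PEM 2, and the SHFD count was 3 without CONT_PEM 2 or CONT_PEM 4. These calls rest on the spread shared by all 6 groups: fitted with the 8 libraries of the contrast alone, limma called 0 members in either contrast (69 of all genes for LHFD instead of 760, and 0 for SHFD instead of 117).

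DNMT3A showed the greatest rise. It had 51.4, 38.3, 40.4 and 46.8 FPKM in LHFD PEM and 37.8, 32.0, 41.6 and 45.9 FPKM in SHFD PEM, against 6.51, 28.7, 15.3 and 30.7 FPKM in CONT PEM. Every library of both high-fat groups was above every control library, and the controls were the most scattered group. The log2 fold change was 1.29 ± 0.30 for LHFD (limma adjusted p = 0.0114) and 1.12 ± 0.30 for SHFD, which was not called (limma adjusted p = 0.0698). Without CONT_PEM 1, the lowest library, the LHFD value was 0.86 (limma adjusted p = 0.0243), and without CONT_PEM 2 it was 1.52 (limma adjusted p = 0.00403). In SOL the values were 40.6, 32.6, 28.3 and 26.1 FPKM under LHFD, 20.9, 18.9, 20.7 and 17.3 FPKM under SHFD and 26.4, 14.9, 22.0 and 19.4 FPKM under CONT, so that SHFD lay within the control range and only the lowest LHFD library did (log2 fold change 0.61 ± 0.30 for LHFD, limma adjusted p = 0.422).

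Both remodellers that rose in LHFD PEM belong to the CHD family. CHD1Z, whose protein in mammals binds methylated H3K4, had 5.92, 8.83, 10.2 and 7.86 FPKM in LHFD PEM against 2.68, 3.90, 4.83 and 5.73 FPKM in CONT PEM. The groups were just apart, with a log2 fold change of 0.81 ± 0.19 (limma adjusted p = 0.0125). In SHFD PEM it had 10.3, 6.08, 6.97 and 8.35 FPKM, also above every control, at 0.77 ± 0.19 (limma adjusted p = 0.0514). CHD9 had 4.74, 6.53, 7.43 and 5.20 FPKM in LHFD PEM against 2.55, 3.96, 4.25 and 4.16 FPKM in CONT PEM (log2 fold change 0.56 ± 0.15, limma adjusted p = 0.0224). Without CONT_PEM 1 neither was called, at adjusted p = 0.0543 for CHD1Z and 0.0913 for CHD9 in limma; leaving out LHFD_PEM 2 or 3 also ended the CHD9 call, at 0.0751 and 0.0798 in limma. KMT5B, of the lysine 20 methyltransferases of histone H4, had 4.33, 3.93, 3.79 and 4.02 FPKM in LHFD PEM against 1.35, 3.34, 2.32 and 2.77 FPKM in CONT PEM. It stood at the edge of the threshold (log2 fold change 0.58 ± 0.18, limma adjusted p = 0.0488), and leaving out any 1 of 18 libraries ended the call, with adjusted p up to 0.176 in limma.

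SMARCD2, a BAF subunit that links complexes to transcription factors, fell under both high-fat diets. It had 6.65, 6.80, 5.16 and 4.93 FPKM in LHFD PEM and 5.29, 6.20, 5.38 and 5.45 FPKM in SHFD PEM, against 9.06, 10.5, 12.6 and 7.64 FPKM in CONT PEM. All 8 high-fat libraries were below the 4 controls. The log2 fold change was -0.66 ± 0.13 for LHFD (limma adjusted p = 0.00376) and -0.71 ± 0.13 for SHFD (limma adjusted p = 0.0104). Both comparisons use the same 4 controls, and without CONT_PEM 2 the values were -0.63 and -0.69, with limma adjusted p of 0.00813 and 0.0132. In SOL the mean was 7.86 FPKM under LHFD and 7.94 FPKM under SHFD, against 9.37 FPKM under CONT, and neither difference was called. Its paralog SMARCD1 was not called, at -0.09 ± 0.12 for LHFD in PEM.

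SETD6, known in mammals to methylate the NF-kappa-B subunit RELA, had 4.01, 4.31, 6.27 and 4.89 FPKM in LHFD PEM against 9.42, 6.45, 8.27 and 8.50 FPKM in CONT PEM. The highest LHFD library lay just under the lowest control, with a log2 fold change of -0.65 ± 0.15 (limma adjusted p = 0.0131), and quantile normalization took the adjusted p to 0.0941. SETD6 in SHFD PEM was between, at a mean of 6.86 FPKM and a log2 fold change of -0.22 ± 0.15. KDM3A had 11.3, 9.51, 14.8 and 9.44 FPKM in LHFD PEM and 11.1, 10.1, 9.70 and 12.0 FPKM in SHFD PEM, against 14.3, 14.8, 25.7 and 19.5 FPKM in CONT PEM. LHFD overlapped the controls in 1 library and SHFD in none. The log2 fold change was -0.66 ± 0.18 for LHFD (limma adjusted p = 0.0294) and -0.70 ± 0.18 for SHFD (limma adjusted p = 0.0609). Leaving out CONT_PEM 3, the highest control, took the LHFD value to -0.50 (limma adjusted p = 0.124), and 4 other libraries, LHFD_PEM 1, 2 and 4 and CONT_PEM 4, each ended the call when left out, as did quantile normalization (limma adjusted p = 0.0603).

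Without CONT_PEM 2 all 7 LHFD calls in PEM held, and the SHFD contrast in PEM gave 3 calls instead of 1. Markers of other cells varied within these groups: the 11 macrophage genes summed to between 113 and 400 FPKM in LHFD PEM and between 117 and 676 FPKM in CONT PEM, with none listed at 0 in any library, and the 7 satellite cell genes to between 62.1 and 131 FPKM in LHFD PEM and between 152 and 186 FPKM in CONT PEM. Of the macrophage genes tested, 0 of 8 were called and of the satellite cell genes 1 of 5 was called lower. That gene was the myogenic factor MYOD1, which had 44.2 to 164.5 FPKM over the PEM libraries and so carried most of the sum, while the median log2 fold change of the 5 genes was 0.01. Their part in the 7 member calls was not tested.

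The counts of the associated lists in LHFD PEM stand against 2.05% higher and 4.90% lower over all genes tested, and at 0 to 3 calls a list they describe single genes. Polycomb genes gave 1 higher (PCGF5, 0.88) and 2 lower (CBX7, -0.94, and RYBP, -0.51) of 26, or 2 higher and 0 lower after quantile normalization. The acetyltransferase partners gave 1 higher (the SAGA subunit ATXN7, 0.99) and 3 lower of 35, among them SUPT7L (-0.80) and ING4 (-0.48). Sirtuins and HDAC corepressor partners gave 0 higher and 3 lower of 25, which were RERE (-0.96), SIRT6 (-0.59) and SAP30 (-0.72). Further histone methyltransferases and partners gave 2 higher, DOT1L (0.40) and PRDM2 (0.47), and 1 lower, PRMT7 (-0.33), of 20. The demethylation list gave 1 lower, PHF2 (-0.65), of 7 (after quantile normalization 1 higher and 0 lower), the BAF, ISWI and INO80 list 1 higher, ATRX (0.51), and 1 lower, POLE3 (-0.55), of 25, and the MEF2 and myogenic list 1 lower, MYOD1 (-1.08), of 20.

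**Figure D4:**
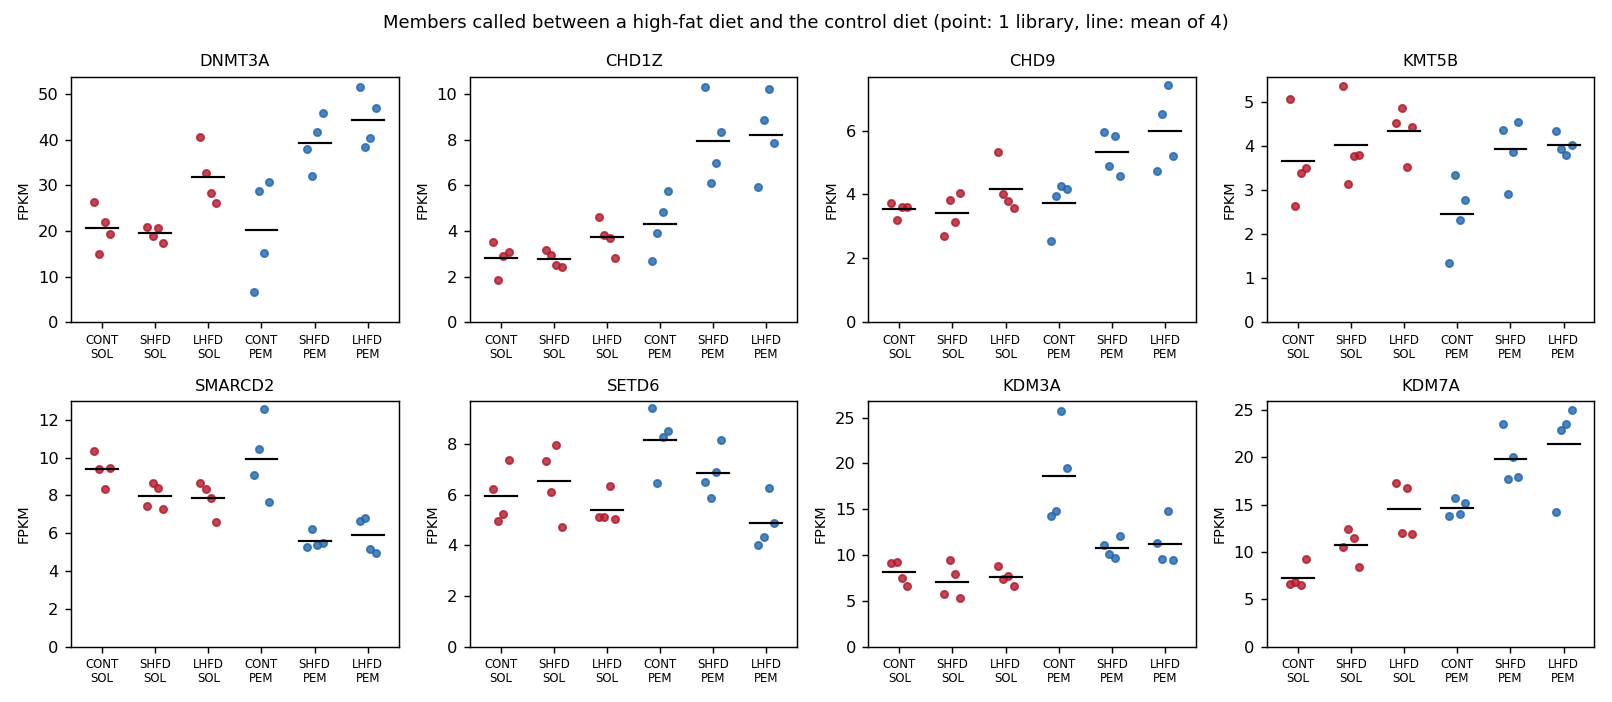
Each point is the FPKM of 1 library and each line the mean of 4, in the order CONT, SHFD and LHFD within SOL (red) and PEM (blue), for the 8 members called between a high-fat diet and the control diet. In PEM the 8 high-fat points lie above all 4 controls for DNMT3A and CHD1Z and below them for SMARCD2, and in SOL KDM7A rises with a control range of 6.46 to 9.28 FPKM and an LHFD range of 11.9 to 17.3 FPKM.

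In SOL, LHFD against CONT gave 1 member, KDM7A, where 0.521% of all genes were called, 0.228% higher, and 9 members had an unadjusted p under 0.05. KDM7A had 17.3, 12.0, 16.8 and 11.9 FPKM in LHFD SOL against 6.60, 6.83, 6.46 and 9.28 FPKM in CONT SOL. The groups did not overlap, and the log2 fold change was 0.90 ± 0.16 (limma adjusted p = 0.0122); leaving out CONT_SOL 1, LHFD_SOL 1 or LHFD_SOL 3 ended the call, at adjusted p of 0.0568, 0.0577 and 0.0537 in limma. In SHFD SOL its mean was 10.7 FPKM, at a log2 fold change of 0.50 ± 0.16 (limma adjusted p = 0.129). In PEM the means were 14.7 FPKM under CONT, 19.8 FPKM under SHFD and 21.4 FPKM under LHFD, and the LHFD difference of 0.49 ± 0.16 was not called (limma adjusted p = 0.0785), but it was called after quantile normalization.

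The other diet contrasts gave 0 called members in limma. For SHFD against CONT in SOL, 0.557% of all genes were called and 12 members had an unadjusted p under 0.05, the first being KAT6B at -0.43 ± 0.13 (limma adjusted p = 0.102). KAT6B had 3.14, 3.41, 3.23 and 3.01 FPKM in SHFD SOL against 4.81, 4.72, 4.61 and 4.51 FPKM in CONT SOL, so the groups were well apart although the test across all genes did not pass. For LHFD against SHFD in SOL, 0.886% of all genes were called, 0.621% higher, 1 member was called without LHFD_SOL 4, and 8 members had an unadjusted p under 0.05. CHD7, a remodeller of enhancers, came first there, with 12.0, 5.11, 10.6 and 5.02 FPKM in LHFD SOL against 3.97, 3.90, 4.10 and 3.83 FPKM in SHFD SOL. The LHFD libraries fell into a high and a lower pair, and the log2 fold change was 0.80 ± 0.22 (limma adjusted p = 0.0938). For LHFD against SHFD in PEM, 0.201% of all genes were called, 0.0822% lower, and 6 members had an unadjusted p under 0.05, SETD6 (-0.43), HDAC11 (-0.53) and SETD3 (0.42) having the smallest p.

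Whether a diet effect differed between the muscles was tested directly, as the effect in SOL minus the effect in PEM. No member was called for SHFD, where 0.00914% of all genes (1 gene) were called, and none for LHFD, where 0.00% were; 7 members in each had an unadjusted p under 0.05. For SHFD the smallest p among members were those of KAT6B (-0.64 ± 0.18, limma adjusted p = 0.486), CHD1Z (-0.78 ± 0.27, limma adjusted p = 0.583) and DNMT3A (-1.18 ± 0.42, limma adjusted p = 0.594). For LHFD they were those of SETD6 (0.53), SMARCD2 (0.43) and SMARCA4 (-0.52), with limma adjusted p from 0.758 to 0.781. The members called in PEM and not in SOL, such as DNMT3A with 1.29 in PEM and 0.61 in SOL, are thus not shown to respond differently in the 2 muscles. The 95% interval of that difference for DNMT3A under LHFD, from -1.55 to 0.19, holds both 0 and a difference as large as the PEM effect itself.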

How the data were processed

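RNA sequencing values were analysed for 24 libraries, 4 in each of 6 muscle-by-diet groups, and groups were taken from the sample labels. The authors deposited 1 FPKM value per gene and library; per the labels' protocols, the pipeline was fastp for read filtering, HISAT2 against GRCg6a (chicken) and StringTie 1.3.3b for quantification. Cufflinks and DESeq2 stand in the submitters' processing notes with no role or version. Because FPKM are relative to a library, abundant genes depress the others, and relatives of a family can share reads. The depth per library is unknown. The 10944 genes that reached 1 FPKM in 4 or more libraries entered limma 3.58.1 (R 4.3.3) as log2(FPKM + 1), with a variance trend and a mean for each group, which left 18 residual degrees of freedom. The 12 comparisons were two-sided, with Benjamini-Hochberg adjustment over all genes tested and a threshold of 0.05. Ratios of relatives were tested by exact permutation. Replicate numbers were not used as pairs, although same-numbered libraries of the 2 muscles correlated at 0.163 to 0.295 in CONT; fits with them as a block are among the alternatives. The labels call the libraries of a group biological replicates; p-values measure the spread between these samples. Alternatives were quantile normalization, equal nuclear-encoded sums, a pseudocount of 0.1, no filter, only the groups compared, replicate blocks, and leaving out libraries.

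The members, roles, pairs and lists were chosen with earlier results of these data known. Text names the 10 largest rises and falls between muscles, the called or top 3 members by diet, fixed enzymes, called pairs and up to 3 members per list; others are named to account for a role. The 54 symbols were looked up in RefSeq, where 52 matched by symbol and 1 by synonym.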

Additional observations from a re-analysis of the deposited data

Results flagged for a closer look

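In 19 of 324 sets of 4 libraries (1 gene in 1 group, 5.86%), the highest or lowest library stood apart from the other 3 by Dixon's criterion; chance alone gives about 1 set in 20. Among genes that the report turns on, CONT_SOL 4 had 9.28 FPKM of KDM7A against 6.46 to 6.83 FPKM in the other libraries of its group, which is the control group of the KDM7A call. SHFD_SOL 2 had 1.36 FPKM of KDM1B against 0.781 to 0.851 FPKM. SMARCB1 stood apart in 2 groups, high in CONT_SOL 3 at 12.7 FPKM and low in SHFD_PEM 2 at 6.25 FPKM. SETD6 reached 6.34 FPKM in LHFD_SOL 3, and CHD5 reached 14.5 FPKM in SHFD_PEM 1 against 8.03 to 8.73 FPKM in the others.

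Further high values were 45.3 FPKM of SETD2 in SHFD_PEM 4, 6.61 FPKM of SMARCA5 and 6.502 FPKM of HDAC3 in LHFD_PEM 3, and 3.44 FPKM of HDAC4 in LHFD_PEM 4. In CONT_SOL, KDM1A reached 5.53 FPKM in replicate 2, and KDM2A reached 8.90 FPKM and KDM4A 20.4 FPKM in replicate 4. KDM2B reached 6.18 FPKM in LHFD_SOL 1, SMARCD1 6.54 FPKM in SHFD_PEM 1 and SMARCE1 30.5 FPKM in CONT_PEM 3. Low values were 4.86 FPKM of KDM3B in LHFD_PEM 1, 1.02 FPKM of SMARCAD1 in SHFD_SOL 1 and 7.38 FPKM of SMARCC2 in LHFD_SOL 3.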

How the results depend on the processing

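Of the counts under other settings, left-out libraries aside, 112 stayed within 1.5 times the main count and 12 did not. Under quantile normalization, members lower in SOL numbered 16 under CONT (10 as reported), 15 under LHFD (8) and 25 over the 3 diets (16), members higher under LHFD 8 (13), and calls 2 for SHFD in PEM and 2 for LHFD in SOL (1 each). With equal nuclear-encoded sums, members lower in SOL were 6 under CONT and 5 under LHFD. With the compared groups alone, SHFD and LHFD in PEM gave 0 calls, and without CONT_PEM 2 and LHFD_PEM 1 SHFD in PEM gave 3. Leaving out 1 library at a time, members lower in SOL under LHFD ranged from 4 to 9, calls for SHFD in PEM from 1 to 3, for LHFD in PEM from 4 (without CONT_PEM 1 or LHFD_PEM 2) to 9, for LHFD in SOL from 0 to 1 and for LHFD against SHFD in SOL from 0 to 1. Among uncalled muscle differences near 0, the sign turned for DNMT1 (0.0541 with equal nuclear-encoded sums and 0.0503 without CONT_PEM 2 and LHFD_PEM 1), HDAC4 (0.0510), KAT2A (0.0285) and SETD2 (0.0494) with equal nuclear-encoded sums and KDM1A (-0.11) with quantile normalization; leaving out 1 library, DNMT1 ranged from -0.0704 to 0.0149, HDAC4 from -0.0717 to 0.0127 and KDM1A from -0.0028 to 0.0599. The cause was not tested for any of these.

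The labels tie no replicate number to a bird. Same-numbered SOL and PEM libraries correlated at 0.163 to 0.295 in all 4 pairs of CONT, over the 0.1 taken as pairing, at 0.0749 to 0.362 in SHFD and at -0.12 to 0.0944 in LHFD; 9 of 12 SOL libraries correlated best with their own number, 4 of them in CONT and 4 in SHFD. The numbers thus met that criterion in CONT and not over all diets. In LHFD, SOL 2, 3 and 4 correlated best with PEM 1, 2 and 3, at 0.242, 0.331 and 0.331. The block by number within diet joins none of these LHFD pairs. The main fit and the permutation test treat SOL and PEM libraries as independent, so any pairing by bird is left out of them. With the number within diet as a replicate block, members were 13 higher and 10 lower under CONT, 8 and 15 under SHFD, 10 and 5 under LHFD, and 15 and 15 over the 3 diets; with the number alone as a block they were 17 and 15 over the 3 diets. The unknown depth limits what low genes such as KDM4C can show.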
